A study of Mus musculus with 12 samples.

Results

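Genes of the major histocompatibility complex (MHC) and of antigen presentation were followed in whole retina RNA of mice that lose Otx2 in photoreceptors (PRs). The set holds 10 genes, chosen by symbol from the 54146 genes counted: H2-K1, H2-D1 and B2m of MHC class I, Tap1, Psmb8 and Psmb9 of peptide supply, and H2-Aa, H2-Ab1, H2-Eb1 and Cd74 of MHC class II. All 10 passed the filter on low counts that kept 18628 genes for testing. In class I presentation, cytosolic proteins are cut by the proteasome, the peptides are carried into the endoplasmic reticulum by the TAP transporter, and they are bound there by a heavy chain paired with β2-microglobulin. Nearly every nucleated cell has class I, at levels that interferons raise, and neurons are known to have little of it. Class II molecules bind peptides of endocytosed proteins and are made mainly by dendritic cells, B cells and macrophages, and the healthy retina is known to hold few such cells, most of them at its edges and around vessels.

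The libraries came from 12 mice on a 129/SV background, 1 library of whole retina per mouse, and the retina RNA included RNA from the retinal pigment epithelium (RPE). Conditional knock-out (cKO) mice carried the Crx-CreERT2 transgene, which drives tamoxifen-dependent Cre in PRs, and the Otx2 flox/flox alleles, and received tamoxifen once at P30. They were killed at P32 (mice 4 to 6), P34 (mice 7 to 9) or P38 (mice 10 to 12), 2, 4 or 8 d later. The 3 control mice were taken at P30 (mice 1 to 3), the day of injection, so that age, tamoxifen and deletion cannot be told apart in any comparison with them. The study's description of the RNA samples does not give the genotype of these control mice. Sex, read from Xist and Y-linked genes, was female in all P30 mice and male in mice 4, 7, 8, 10 and 11, so that sex is partly mixed with group. Counts on genes came to 29701483 to 60145034 per library, and levels are given as CPM, the count of a gene relative to all counts of its library after TMM scaling. Before that scaling, 3 counts are worth 0.0499 to 0.101 CPM. Otx2 itself stood at 293 to 377 CPM in all 12 mice and did not pass the threshold at any age. That total does not measure the deleted exon, which was not analysed here. Markers of tissue next to the retina differed widely between mice: 8 lens genes summed to 181 to 29460 CPM and 10 RPE and pigment cell genes to 82.7 to 860 CPM. A gene is called changed where its log2 fold change was 0.5 or more in size and its adjusted p 0.05 or less. P-values are from the quasi-likelihood test of edgeR, with the Benjamini-Hochberg adjustment over all genes tested, unless another test is named.

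Of the 10 genes, 8 lie in the MHC on chromosome 17 of GRCm38, between H2-K1 (33996017 to 34000347, minus strand) and H2-D1 (35262730 to 35267499, plus strand). Psmb9 (34181987 to 34187764, minus strand), Tap1 (34187553 to 34197225, plus strand) and Psmb8 (34197721 to 34201454, plus strand) are neighbours, and the 5′ ends of Psmb9 and Tap1 overlap. H2-Ab1 (34257689 to 34269419, plus strand), H2-Aa (34282744 to 34287823, minus strand) and H2-Eb1 (34305867 to 34316674, plus strand) follow. B2m lies on chromosome 2 (122147686 to 122153083, plus strand), and Cd74 lies outside both regions.

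The promoters are shown to describe the letters before the starts of class I and class II genes, whose levels are described apart below. Sequences are from RefSeq on GRCm38.p6, whose table gave a window from 250 bases before to 50 after the start for 8 of the 10 genes, H2-Ab1 and Cd74 not among them. The stretches below lie wholly before the RefSeq start and run 5′ to 3′ on the strand of the gene, and capitals mark matches to the motifs spelled out after them. Those of the 2 class II genes cover the 120 bases up to the start, on chr17:34287824-34287943 (minus) and chr17:34305747-34305866 (plus).
H2-Aa: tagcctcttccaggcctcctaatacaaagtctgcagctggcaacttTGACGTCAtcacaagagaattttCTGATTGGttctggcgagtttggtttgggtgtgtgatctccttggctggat
H2-Eb1: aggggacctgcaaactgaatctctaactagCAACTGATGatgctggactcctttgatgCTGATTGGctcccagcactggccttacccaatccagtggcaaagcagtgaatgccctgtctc

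The stretches of the 2 class I heavy chain genes, on chr17:35262904-35263053 (plus) and chr17:34000348-34000477 (minus), hold the same 9-letter match and align over 130 bases with 90.8% identity and 1 internal gap. The stretch of H2-D1 lies inside the longer gene that GENCODE annotates. That of B2m lies on chr2:122147527-122147646 (plus), and that of Tap1, on chr17:34187331-34187480 (plus), lies also before the RefSeq start of Psmb9 on the other strand.
H2-D1: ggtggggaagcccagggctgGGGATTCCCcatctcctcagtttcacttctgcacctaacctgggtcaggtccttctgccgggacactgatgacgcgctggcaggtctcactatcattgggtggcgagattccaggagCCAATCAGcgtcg
H2-K1: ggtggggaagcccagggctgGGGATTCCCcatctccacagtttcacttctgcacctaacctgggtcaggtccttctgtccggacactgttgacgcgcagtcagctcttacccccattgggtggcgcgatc
B2m: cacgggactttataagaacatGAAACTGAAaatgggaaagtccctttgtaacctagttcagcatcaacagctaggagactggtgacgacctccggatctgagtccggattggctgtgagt
Tap1: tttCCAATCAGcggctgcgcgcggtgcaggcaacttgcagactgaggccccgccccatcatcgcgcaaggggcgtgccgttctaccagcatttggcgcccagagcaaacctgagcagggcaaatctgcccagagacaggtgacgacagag

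Motifs were searched on both strands of all 32851 windows of 300 bases, and a match is a description of letters only. The Y box, CTGATTGG, which binds NF-Y, was found in 6 of the 8 members with a window (H2-K1, H2-D1, Tap1, Psmb9, H2-Aa and H2-Eb1) and in 4.1% of all windows. Those of Tap1 and Psmb9 are the same 8 bases of their shared promoter. In H2-K1 it begins at base 9 after the upstream of its 2 RefSeq starts, past the printed stretch. In H2-Aa and H2-Eb1 it begins 51 and 62 bases before the start. A core of the X box, CAACNGATG, an element that binds the RFX complex, was found in H2-Eb1 and in 0.566% of windows. The X2 form TGACGTCA was found in H2-Aa and in 1.79%. The κB letters GGGATTCCC were found in H2-K1 and H2-D1 and in 0.353% of windows. The letters GAAANNGAA, a core of the interferon-stimulated response element, were found in B2m and in 8.56%. Other spellings of these elements were not searched, so a member without a match may still hold one. The matches of H2-Aa, H2-Eb1 and H2-D1 do not overlap one another.

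The levels of the class I genes stood well above those of class II when set per length. As means over the 12 mice in CPM per kb of merged exon, B2m, the invariant light chain of class I, had 29.8, H2-D1 15.1 and H2-K1 6.47. Cd74 followed with 1.08 CPM per kb. The remaining 6 genes lay between 0.279 (Psmb9) and 0.624 (H2-Eb1) CPM per kb, and the ranges of these 6 over the mice overlapped, except that all values of Psmb9 lay below all values of Tap1 and Psmb8. Reads with more than 1 position were not counted, and H2-K1 and H2-D1 have near-identical relatives in the H2-Q and H2-T families, so that their levels are lower bounds.

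**Figure D1:**
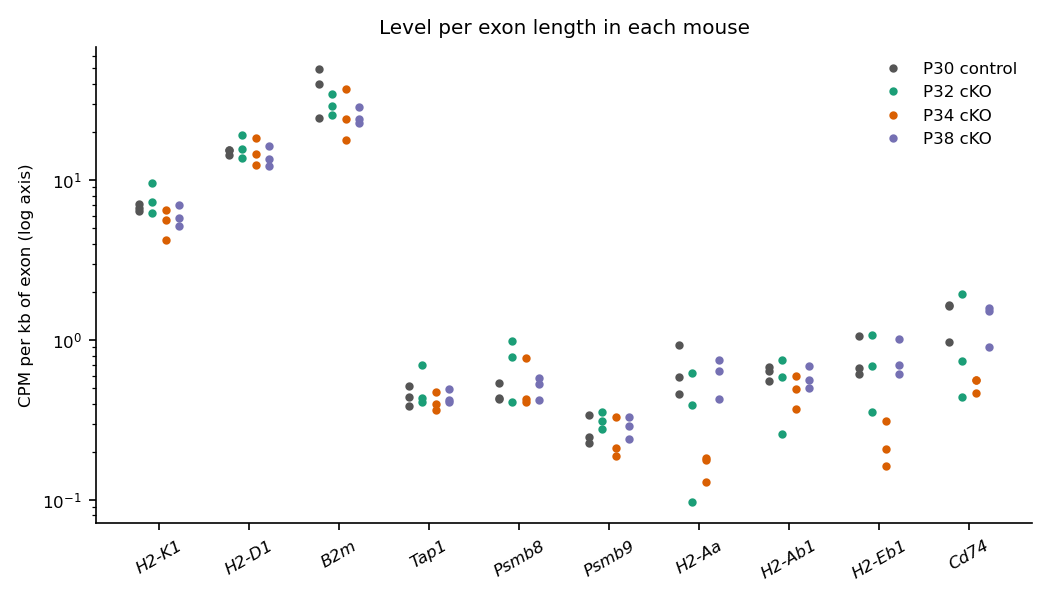
Level of each of the 10 genes in each mouse, in CPM per kb of merged exon on a log axis, with colors for P30 control, P32, P34 and P38 cKO mice. B2m, H2-D1 and H2-K1 form the upper group with 12-mouse means of 29.8, 15.1 and 6.47, the other genes lie at a mean of 1.08 or less, and the P34 points of H2-Aa, H2-Eb1 and Cd74 sit at or near the bottom of their columns.

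Among the members, H2-Aa, H2-Eb1 and Cd74 had the largest fold changes at P34. There, all 3 cKO mice had less RNA of each of these genes than each P30 mouse, with fitted folds between the groups of 2.66 to 4.07, and at P38 all 3 mice were again above each P34 mouse. H2-Ab1 did not show this, and its P34 values overlapped those of P30. None of these differences passed the threshold by edgeR with its filter on low counts, and some did with other settings, given below.

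H2-Aa, the α chain of the I-A class II molecule, stood at 2.22, 3.55 and 1.75 CPM in P30 mice 1 to 3 and at 2.37, 1.499 and 0.370 CPM in P32 mice 4 to 6. It stood at 0.690, 0.490 and 0.677 CPM in P34 mice 7 to 9 and at 2.86, 2.44 and 1.63 CPM in P38 mice 10 to 12. The P34 mice were all below the P30 and the P38 mice, and P32 mouse 6 was lower still. The P34 mean of 0.619 ± 0.112 CPM (SD, n = 3), from 20 to 25 counts per mouse, lay below that of P30, 2.51 ± 0.934 CPM, with a fitted log2 fold change of -2.02 (SE 0.53, adjusted p = 0.173). From P34 to P38 the log2 fold change was 1.91 (SE 0.53, adjusted p = 0.440), and from P32 to P34 it was -1.18 (SE 0.54, adjusted p = 0.182).

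H2-Eb1, which encodes the β chain of the I-E molecule, stood at 1.20, 2.06 and 1.31 CPM in the P30 mice and at 2.10, 1.34 and 0.690 CPM at P32. The P34 values were 0.608, 0.319 and 0.406 CPM, from 12 to 22 counts, and the P38 values were 1.97, 1.36 and 1.19 CPM. Every P34 mouse was thus below every mouse of the 3 other groups, P32 mouse 6 included. The log2 fold change of P34 was -1.77 against P30 (SE 0.43, adjusted p = 0.126) and -1.62 against P32 (SE 0.43, adjusted p = 0.0948). From P34 to P38 it was 1.76 (SE 0.43, adjusted p = 0.283). The gene H2-Ea-ps, the partner α chain that is inactive in H2b mice, had 0 counts in all 12 libraries.

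Cd74, the invariant chain that guides class II molecules to the endosome, is encoded on chromosome 18 (60803848 to 60812652, plus strand of GRCm38). It stood at 1.64, 2.77 and 2.73 CPM at P30 and at 3.24, 1.24 and 0.739 CPM at P32. It stood at 0.939, 0.784 and 0.948 CPM at P34 and at 2.65, 2.53 and 1.53 CPM at P38. The P34 mice again lay below all P30 and P38 mice, and P32 mouse 6 was the lowest of all 12. The log2 fold change at P34 was -1.41 against P30 (SE 0.46, adjusted p = 0.304), -0.96 against P32 (SE 0.47, adjusted p = 0.209) and, from P34 to P38, 1.33 (SE 0.47, adjusted p = 0.692).

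H2-Ab1, the β chain of I-A and the partner of H2-Aa, stood at 1.74, 1.66 and 1.43 CPM at P30 and at 1.92, 1.499 and 0.665 CPM at P32. It stood at 1.27, 0.955 and 1.52 CPM at P34 and at 1.77, 1.45 and 1.29 CPM at P38. All 4 groups overlapped, and the lowest value of all was again that of P32 mouse 6. The log2 fold change at P34 was -0.37 against P30 (SE 0.34, adjusted p = 0.741), -0.12 against P32 (SE 0.34, adjusted p = 0.836) and, from P34 to P38, 0.28 (SE 0.34, adjusted p = 1).

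**Figure D2:**
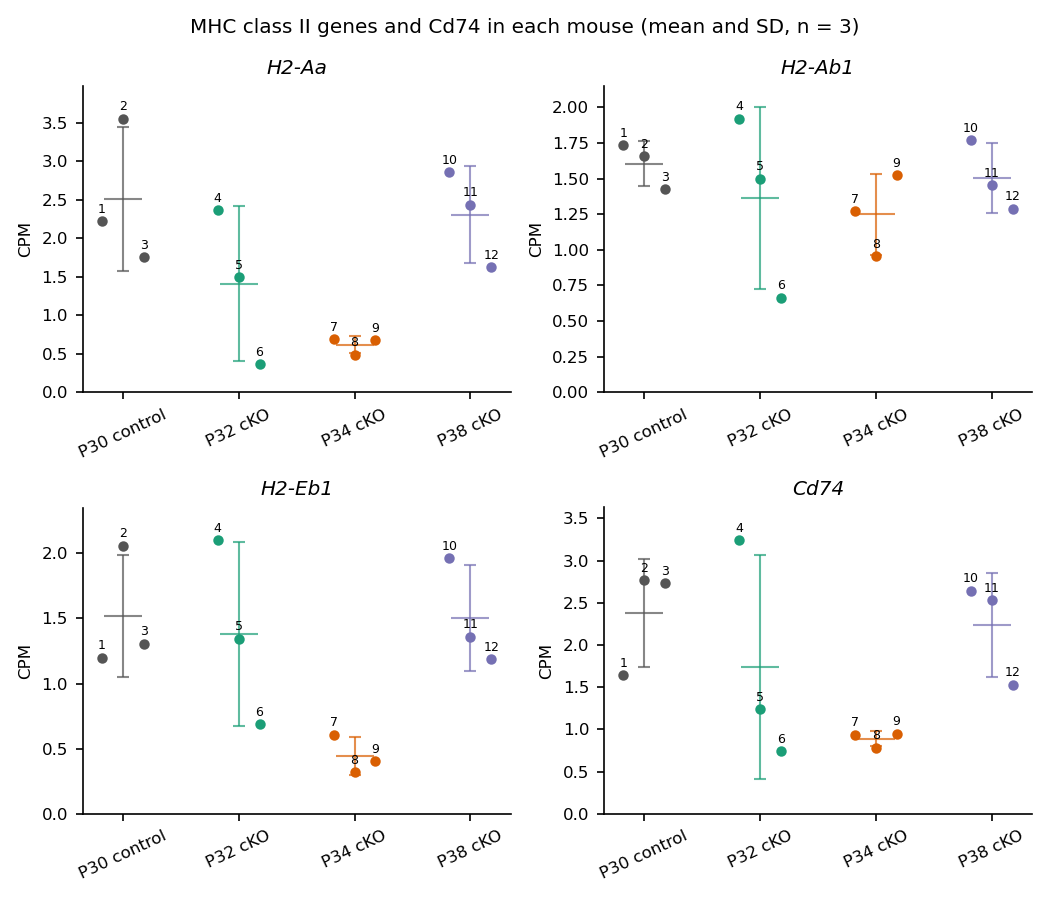
CPM of H2-Aa, H2-Ab1, H2-Eb1 and Cd74 in each mouse, with the mouse number beside each point and the mean and SD of the 3 mice of a group as bars. The P34 mice 7 to 9 lie below all P30 and P38 mice in H2-Aa, H2-Eb1 and Cd74 but not in H2-Ab1, and P32 mouse 6 is low in all 4 genes.

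Over the 10 members, 0 were called lower at P34 against P30 by edgeR, beside 0.66% of all genes tested, and 0 were called higher, beside 0%. At an unadjusted p of at most 0.05 in the same fit, 3 of 10 were lower, beside 7.06% of all genes, and 0 were higher, beside 3.4%. In 3 of 10 all P34 values were below all P30 values, beside 9.67% of all genes. DESeq2 without shrinkage called 2 of them lower, H2-Aa and H2-Eb1, among 369 genes called in all, where the edgeR test called 123, and edgeR with no filter beyond 1 count called the same 2 among 298. The 4 class II genes had a median log2 fold change of -1.59 with all 4 below 0, beside 50.2% of all genes, and the 6 class I and peptide supply genes a median of -0.13 with 4 below 0, where the median of all genes was -0.0013. Without P32 mouse 6, which is in neither group compared, edgeR called H2-Aa (adjusted p = 0.0176) and H2-Eb1 (adjusted p = 0.0416) lower at P34 against P30, among 213 genes. Without any other single library it called 0 members. With only the P30 and P34 mice in the fit it called H2-Aa, among 229 genes. Over the alternatives tried without a ciliary body covariate, the adjusted p-values ran from 0.0107 to 0.454 for H2-Aa and from 0.0111 to 0.396 for H2-Eb1. Without P30 mouse 1 and P32 mouse 4, Cd74 was the 1 member called (adjusted p = 0.0389), among 164 genes, with adjusted p-values of 0.0389 to 0.707 over the same alternatives.

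Between the cKO ages, P34 was compared with P32 and P38 with P34. Both comparisons use the same 3 P34 mice as that with P30, so that low P34 values enter all of them. Against P32, 0 members were called lower at P34, beside 0.242% of all genes, and 3 (H2-Aa, H2-Eb1 and H2-K1) had an unadjusted p of at most 0.05, beside 13.3% of all genes. Only H2-Eb1 lay wholly below its P32 values, beside 13.6% of all genes. DESeq2 called H2-Eb1, among 1422 genes against 45 by edgeR, and without P32 mouse 6 edgeR called H2-Aa, H2-Eb1, Cd74 and H2-K1, 4 of 10, among 2726 genes called in all. Without P32 mouse 4, the log2 fold changes from P32 to P34 were -0.59 for H2-Aa and -0.15 for Cd74. From P34 to P38, 0 members were called higher, beside 0.199% of all genes, 3 had an unadjusted p of at most 0.05, beside 3.5%, and in the same 3 (H2-Aa, H2-Eb1 and Cd74) all P38 values were above all P34 values, beside 5.36%. DESeq2 called H2-Aa and H2-Eb1 higher at P38, among 144 genes called, against 37 by edgeR. The median log2 fold change of the 4 class II genes was 1.55 from P34 to P38, where that of all genes was -0.003. In whole tissue, fewer cells of a type and less RNA per cell cannot be told apart.

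At P32 and P38, the values of all 4 class II genes overlapped those of P30. At P32, the log2 fold changes of the 4 genes lay between -0.84 (H2-Aa, SE 0.50, adjusted p = 0.698) and -0.15 (H2-Eb1, SE 0.39, adjusted p = 0.903). The value of H2-Aa was -1.43 without P32 mouse 4, -0.38 without P32 mouse 6 and -0.51 without P30 mouse 2. This group was the most uneven, since mouse 4 had the highest H2-Ab1, H2-Eb1 and Cd74 of all 12 mice and mouse 6 the lowest H2-Aa, H2-Ab1 and Cd74. At P38, the log2 fold changes lay between -0.12 (H2-Aa, SE 0.49) and -0.01 (H2-Eb1, SE 0.39), with adjusted p-values of 0.975 to 0.997. By edgeR, 0 members were called at either age or between P32 and P38, beside 0% of all genes in each direction. DESeq2 also called 0 members in these comparisons, and 25 genes in all at P32 against P30. At an unadjusted p of at most 0.05, 0 members were lower or higher at P32, beside 3.09% and 2.55% of all genes, 0 at P38, beside 3.82% and 1.82%, and 0 between P32 and P38, beside 10.9% and 12.3%.

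**Figure D3:**
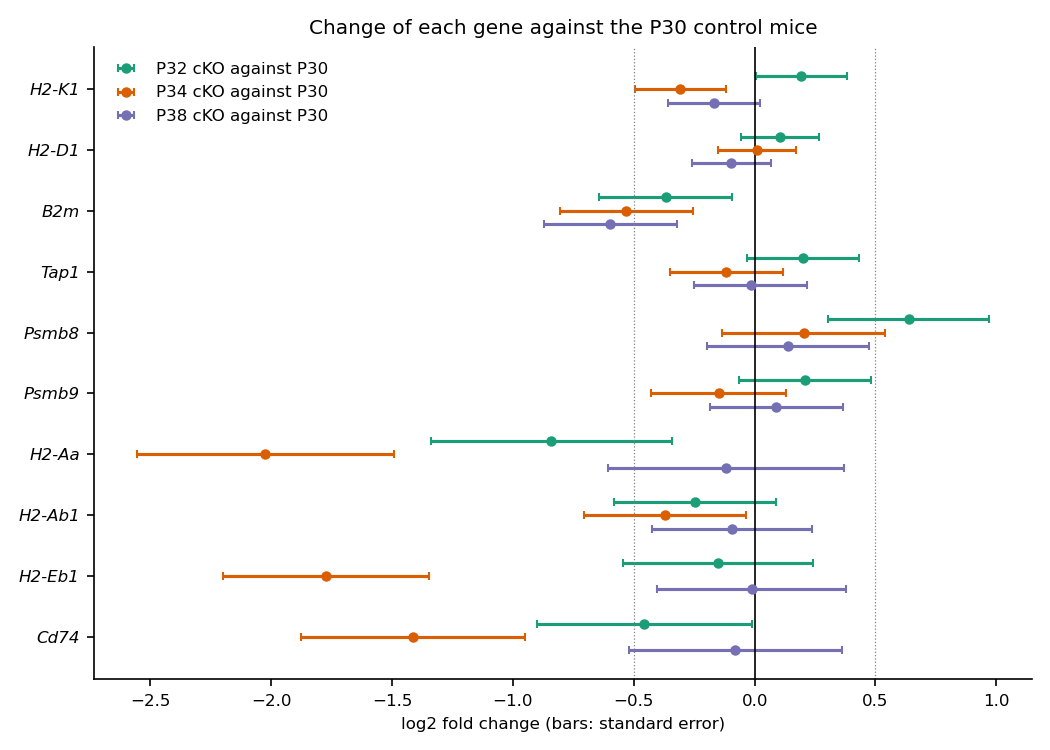
Log2 fold change of each gene at P32, P34 and P38 against the same 3 P30 mice, with the standard error of the fit as bars, a solid line at 0 and dotted lines at the threshold of 0.5 in size. H2-Aa, H2-Eb1 and Cd74 reach -2.02, -1.77 and -1.41 at P34 and lie between -0.12 and -0.01 at P38, while the class I and peptide supply genes lie between -0.60 and 0.64 at all 3 ages.

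Neither class I heavy chain was called in any comparison with all mice in the fit. H2-K1 stood at 18.9, 19.7 and 20.9 CPM at P30 and at 28.2, 21.5 and 18.2 CPM at P32. The P34 mice had 19.1, 12.4 and 16.5 CPM and the P38 mice 20.7, 15.2 and 17.0 CPM. The P30 mice lay close together, the cKO mice spread to both sides, and every cKO group overlapped P30. The log2 fold change was -0.31 at P34 against P30 (SE 0.19, adjusted p = 0.601; -0.46 without mouse 7 and -0.15 without mouse 8) and -0.50 at P34 against P32 (SE 0.19, adjusted p = 0.131; -0.31 without mouse 4).

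H2-D1, the other classical heavy chain, stood at 39.6, 37.1 and 39.6 CPM at P30 and at 49.2, 40.3 and 35.7 CPM at P32. It stood at 47.6, 31.9 and 37.6 CPM at P34 and at 42.0, 35.2 and 31.5 CPM at P38. Again the P30 mice were the closest together, and each cKO group held mice on both sides of them. The log2 fold change at P34 against P30 was 0.01 (SE 0.16, adjusted p = 0.992).

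B2m spread more among the controls than the heavy chains it pairs with. It stood at 21.2, 34.6 and 42.8 CPM in P30 mice 1, 2 and 3, a mean of 32.8 ± 10.9 CPM (SD, n = 3). The P32 mice had 24.8, 29.5 and 21.9 CPM, the P34 mice 31.95, 15.4 and 20.8 CPM and the P38 mice 24.8, 19.7 and 20.6 CPM. P30 mouse 1 lay within the range of the cKO mice and P30 mice 2 and 3 above all of them. Against P30, the log2 fold change was -0.37 at P32 (SE 0.27, adjusted p = 0.701), -0.53 at P34 (SE 0.28, adjusted p = 0.538) and -0.60 at P38 (SE 0.28, adjusted p = 0.847). Without P30 mouse 3 these values were -0.13, -0.31 and -0.36, at P34 it was -0.87 without mouse 7 and -0.31 without mouse 8, and at P32 it was -0.60 without P30 mouse 1. With the 9 cKO mice taken as 1 group, it was -0.50 (SE 0.21, unadjusted p = 0.0350, adjusted p = 1), and -0.26 without P30 mouse 3. B2m was the 1 member with an unadjusted p of at most 0.05 in that comparison, beside 2.16% of all genes lower. By edgeR 0 members were called in it, beside 0.0537% of all genes called lower, and DESeq2 called 0.

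Tap1, a subunit of the peptide transporter, stood at 2.13, 2.42 and 2.82 CPM at P30 and at 2.25, 3.80 and 2.39 CPM at P32. The P34 mice had 2.60, 2.18 and 1.997 CPM and the P38 mice 2.31, 2.72 and 2.24 CPM. P32 mouse 5 was the highest, and the rest lay within the P30 range or close to it. The log2 fold change at P34 was -0.12 (SE 0.23, adjusted p = 0.908).

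Psmb8 and Psmb9 encode β subunits that replace those of the constitutive proteasome in the immunoproteasome. Psmb8 stood at 1.45, 1.47 and 1.81 CPM at P30 and at 3.33, 2.66 and 1.38 CPM at P32. It stood at 2.60, 1.45 and 1.39 CPM at P34 and at 1.43, 1.97 and 1.80 CPM at P38. P32 mice 4 and 5 were the 2 highest and P32 mouse 6 the lowest, which left a log2 fold change of 0.64 at P32 (SE 0.33, adjusted p = 0.698), 0.20 at P34 (SE 0.34, adjusted p = 0.886) and 0.14 at P38 (SE 0.34, adjusted p = 0.961). Without P32 mouse 4 the P32 value was 0.36.

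Psmb9 was the least abundant member per length, with 0.836, 0.909 and 1.25 CPM at P30 and 1.29, 1.14 and 1.01 CPM at P32. The P34 mice had 1.22, 0.686 and 0.779 CPM and the P38 mice 1.21, 1.06 and 0.883 CPM. All groups overlapped, and the log2 fold change at P34 was -0.15 (SE 0.28, adjusted p = 0.903). The strand setting of the counting is not given in the sources used here, so reads in the overlap of Psmb9 and Tap1 may have been left out as ambiguous.

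**Figure D4:**
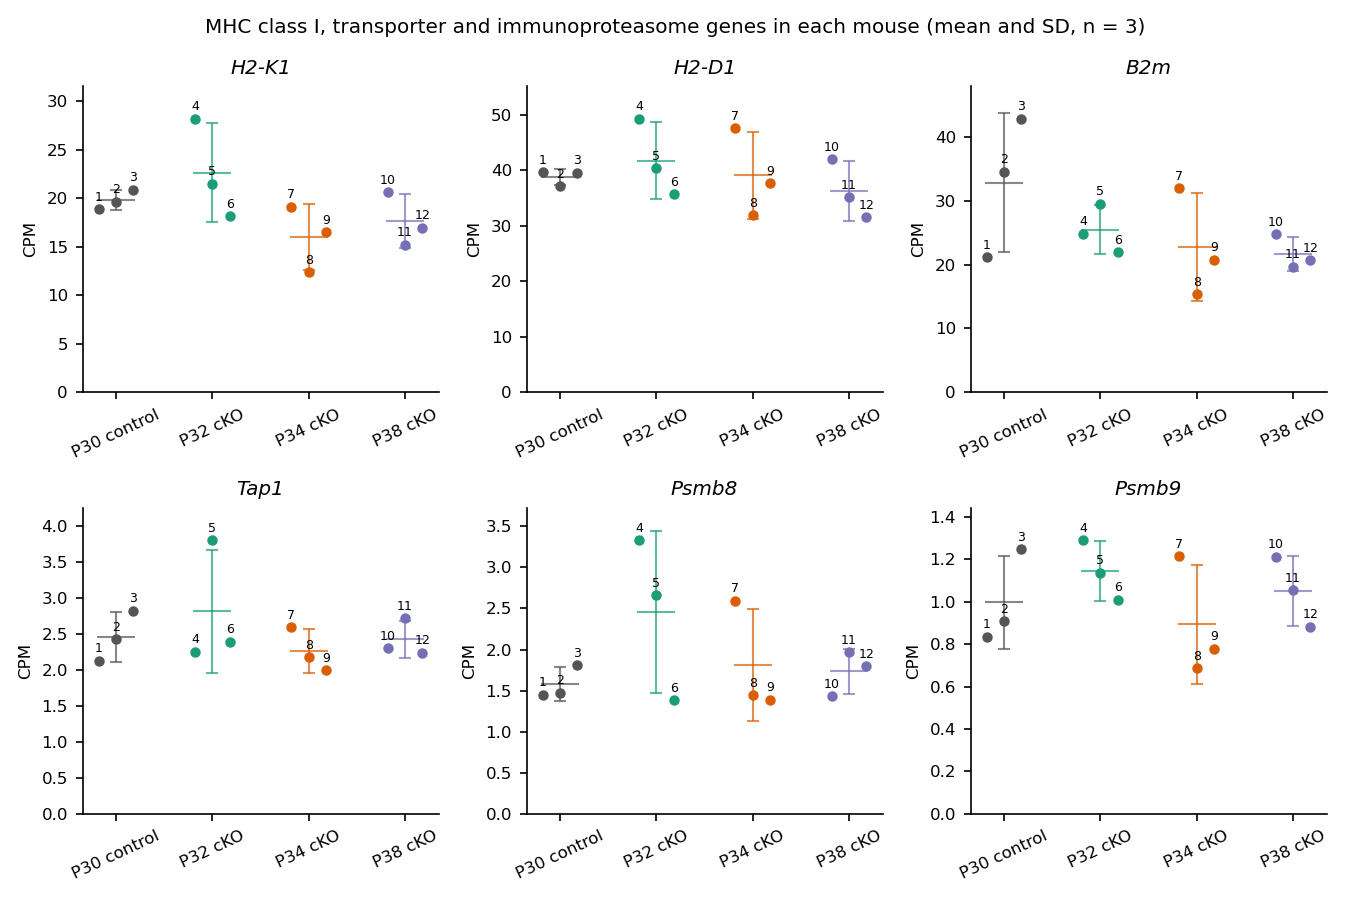
CPM of H2-K1, H2-D1, B2m, Tap1, Psmb8 and Psmb9 in each mouse, with the mouse number beside each point and the mean and SD of the 3 mice of a group as bars. Every cKO group overlaps P30 in all 6 genes, P30 mice 2 and 3 have the highest B2m of all mice, and P32 mouse 4 has the highest H2-K1, H2-D1 and Psmb8.

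The other genes of class I presentation gave 0 calls in any comparison by edgeR, over the 20 of 21 that could be tested. At P34, their log2 fold changes had a median of -0.05 and ran from -0.81 to 0.82. Of the 20, 1 was lower at an unadjusted p of at most 0.05, beside 7.06% of all genes. This was Cd1d1, named after its values were seen (log2 fold change -0.54, SE 0.22, adjusted p = 0.422). The most abundant were Canx, Calr and Pdia3, which encode chaperones of the endoplasmic reticulum that help to fold class I. Their log2 fold changes at P34 were 0.22 (SE 0.12), 0.05 (SE 0.16) and -0.14 (SE 0.17), with adjusted p-values of 0.552, 0.947 and 0.831. Nlrc5, which encodes the transactivator of class I genes, stood at 0.773, 1.09 and 2.73 CPM in P30 mice 1 to 3. It stood at 0.828, 0.808 and 1.22 CPM at P34 (log2 fold change -0.67, SE 0.46, adjusted p = 0.647). P30 mouse 3 had the highest value of all 12 mice, and the other 2 P30 mice lay within the P34 range or close to it.

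The constitutive proteasome gave a reference for Psmb8 and Psmb9. All 14 of its 20S genes were tested and 0 were called, and their log2 fold changes at P34 lay between -0.05 and 0.12. Psmb5, Psmb6 and Psmb7, whose products the immunoproteasome subunits replace, had log2 fold changes of 0.28 (SE 0.19), 0.32 (SE 0.22) and 0.27 (SE 0.19) at P32, with adjusted p-values of 0.698. In P32 mouse 4, which had the highest Psmb8, the 14 genes summed to 1533 CPM, where the other 11 mice had 776 to 1074 CPM. Psmb10, the further immunoproteasome subunit, named here after its values were seen, was also highest in that mouse, at 19.8 CPM against 7.75 to 12.98 CPM in the others.

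The interferon response list was tested in 24 of 25 genes and gave 0 calls, with a median log2 fold change of 0.33 at P32, 0.09 at P34 and -0.02 at P38. The summed list was highest in P32 mouse 5, at 268 CPM against 150.1 to 208 CPM in the others, and this was the mouse with the highest Tap1.

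Among the other genes of class II presentation, 11 of 17 could be tested and 0 were called by edgeR in any comparison. At P34, 2 had an unadjusted p of at most 0.05, both lower, beside 7.06% of all genes, and the median log2 fold change of the 11 was -0.02. These 2, named after their values were seen, were Ifi30, a thiol reductase of the antigen-processing endosome, and H2-DMb1, a chain of the molecule that loads peptides on class II. Ifi30 stood at 7.51, 9.31 and 7.28 CPM at P30 and at 3.59, 3.75 and 3.83 CPM at P34 (log2 fold change -1.11, SE 0.24, adjusted p = 0.0794). H2-DMb1 stood at 0.662, 0.565 and 0.773 CPM at P30 and at 0.249, 0.221 and 0.169 CPM at P34 (log2 fold change -1.62, SE 0.47, adjusted p = 0.237). Both were lower in all P34 mice than in all P30 mice, as were 9.67% of all genes. The most abundant genes were Ctsl and Lgmn, endosomal proteases, and Rfx5, a subunit of the RFX complex, with log2 fold changes at P34 of -0.82 (SE 0.41), 0.03 (SE 0.12) and 0.04 (SE 0.16) and adjusted p-values of 0.525, 0.964 and 0.965. Ciita, which encodes the transactivator that class II genes depend on, was at 0 to 0.0938 CPM in all 12 libraries and too low to test.

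In the P34 mice, class II RNA was low together with several markers of cells outside the neural retina. The 4 class II genes summed to 6.80 to 10.0 CPM in P30, 2.46 to 9.63 in P32, 2.55 to 3.55 in P34 and 5.64 to 9.24 in P38 mice. The 6 ciliary body markers summed to 132 to 145 CPM, 54.5 to 146 CPM, 12.5 to 18.9 CPM and 53.3 to 103 CPM at the same ages, and 5 of the 6 were called lower at P34. P32 mouse 6, which had a class II sum of 2.46 CPM, had the lowest ciliary body sum of its group (54.5 CPM), and P38 mouse 12 had the lowest of both sums in its group. The sums did not follow each other in every mouse: P38 mouse 12 had a ciliary body sum of 53.3 CPM, like P32 mouse 6, with a class II sum of 5.64 CPM. In P32 and P38, the mice with the highest class II sum (4 and 10) were not those with the highest ciliary body sum (5 and 11). Optc, the most abundant ciliary body marker here and named after its values were seen, had 73.8 to 99.0 CPM at P30 and 2.47 to 4.06 CPM at P34 (log2 fold change -4.84, SE 0.42, adjusted p = 0.000423). With a score of these markers in the fit 0 genes were called in any comparison, but the scores of the P34 mice (mean log2 CPM of 0.164 to 0.805) did not overlap those of the other 9 mice (1.89 to 3.81), so that the score and the age can hardly be told apart. The part of the ciliary body in the class II values was not tested beyond this.

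**Figure D5:**
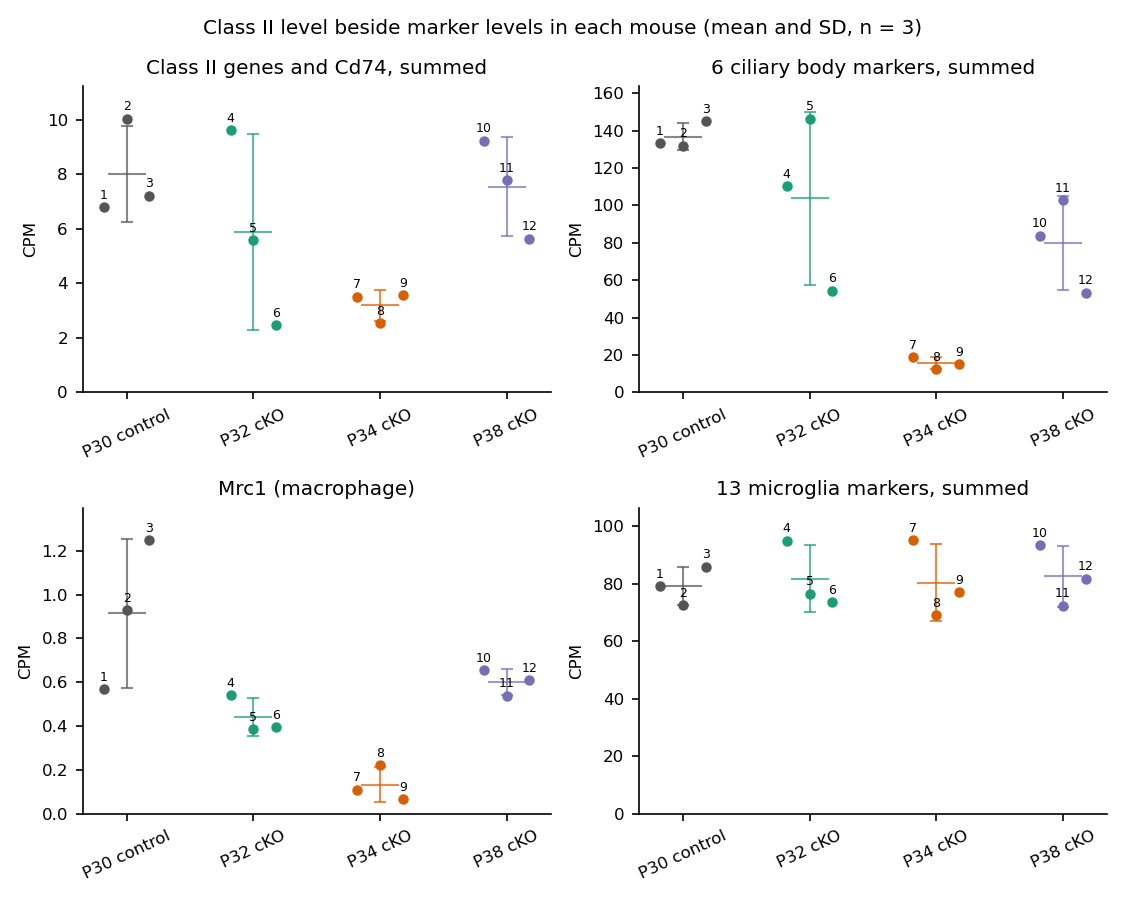
Summed CPM of the 4 class II genes, of 6 ciliary body markers and of 13 microglia markers, and CPM of Mrc1, in each mouse, with the mouse number beside each point and the mean and SD of the 3 mice of a group as bars. The class II and ciliary body sums and Mrc1 are lowest at P34, with class II in P32 mouse 6 as low as there, while the microglia sum lies between 69.1 and 95.2 CPM in all mice.

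The summed smooth muscle, stromal, lens and pigment cell markers were also lower in the P34 than in most P30 mice, but none of these sums followed class II in every mouse. All 4 smooth muscle markers that could be tested were called lower at P34, where the 5 markers of the list summed to 9.11 to 13.1 CPM, against 28.9 to 197 CPM at P30. P32 mice 4 to 6 had smooth muscle sums of 47.4, 42.5 and 10.45 CPM, in the order of their class II sums (9.63, 5.58 and 2.46 CPM), with mouse 6 in the P34 range. P38 mice 10 to 12 had smooth muscle sums of only 14.8 to 22.3 CPM, although their class II sums of 5.64 to 9.24 CPM were near those of P30. The 6 stromal markers summed to 64.2 to 94.9 CPM at P30, 26.5 to 49.4 CPM at P34 and 50.1 to 88.8 CPM at P38, and to 38.4 CPM in P32 mouse 6. In P32, mouse 4 had more class II than mouse 5 but a lower stromal sum (58.8 and 72.5 CPM). Of the stromal markers, 1, Col1a2, a collagen chain, was called lower at P34 against P30 (log2 fold change -1.90, SE 0.29, adjusted p = 0.0117) and against P32, and higher from P34 to P38. The 8 lens genes summed to 29460, 22390 and 487 CPM in P32 mice 4 to 6, again in the order of class II, to 181 to 502 CPM at P34 and to 358 CPM in P30 mouse 2, which had the highest class II sum of all mice, 10.0 CPM. The 10 RPE and pigment cell markers summed to 195 to 860 CPM at P30, 111 to 166 CPM at P34 and 101 to 256 CPM at P38, and to 82.7 CPM in P32 mouse 6. Of these 10, 2 were called lower at P34 against P30, the pigment genes Tyrp1 and Mlana, and the median log2 fold change was -2.29. Rpe65, Lrat and Ttr, which are RPE genes, had log2 fold changes of 0.33, 0.28 and -0.07 there, with values that overlapped P30. Best1, a further RPE gene of the list, stood at 0.718, 0.857 and 0.237 CPM in P34 mice 7 to 9, against 0.747 to 0.836 CPM at P30. Of the 10 genes, 8 had a log2 fold change below 0 at P34. The part of these tissues in the class II values was not tested.

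Microglia and border macrophages, cells that can make class II, were read from their own lists. The 13 microglia markers summed to 72.5 to 86.0 CPM at P30 and 69.1 to 95.2 CPM at P34, and 0 of 13 were called (median log2 fold change at P34 -0.08). Among the border and perivascular macrophage markers, 6 of 9 could be tested. Of these, 1, Mrc1, the mannose receptor, was called lower at P34, beside 0.66% of all genes. Mrc1 stood at 0.568, 0.929 and 1.25 CPM in the P30 mice and at 0.540, 0.388 and 0.394 CPM in the P32 mice. The P34 mice had 0.110, 0.221 and 0.0677 CPM, from only 4, 9 and 2 counts, and the P38 mice 0.655, 0.540 and 0.611 CPM. Its P34 values lay below those of every other mouse (log2 fold change against P30 -2.69, SE 0.43, adjusted p = 0.0141). Stab1, Folr2 and Ms4a7 of this list, named after their values were seen, were also lower in all P34 than in all P30 mice, as were 9.67% of all genes. Their log2 fold changes were -1.14 (SE 0.27), -0.97 (SE 0.29) and -1.73 (SE 0.72), with adjusted p-values of 0.114, 0.254 and 0.436. Ms4a7 had only 3, 4 and 0 counts in the P34 mice. F13a1 overlapped P30, with 0.0552, 0 and 0.576 CPM at P34. The sum of the list, 23.5 to 28.2 CPM at P30 and 22.8 to 24.1 CPM at P34, is mostly Lyve1, which had 15.4 to 24.5 CPM in all mice and is also made by other cells. Of the dendritic and the lymphocyte lists, 4 of 9 genes each were at 3 counts or less in every library. The dendritic list summed to 8.61 to 12.2 CPM, mostly from Zbtb46 (5.77 to 8.36 CPM) and Flt3 (2.48 to 3.68 CPM), and 0 of its 3 tested genes were called. The part of macrophages in the class II values was not tested.

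The likeness of the members over the 12 mice was described by Pearson's r of log2 CPM. It was 0.63 to 0.92 for pairs of class II genes and 0.018 to 0.702 for pairs of a class II gene with a class I or peptide supply gene. It was 0.92 for H2-Aa with Cd74, 0.899 for H2-Aa with H2-Eb1 and 0.88 for H2-Eb1 with Cd74, and 0.822 for H2-Aa with its partner H2-Ab1. For pairs of the 6 class I and peptide supply genes it was 0.167 (H2-D1 with Tap1) to 0.794 (H2-K1 with H2-D1). These are descriptions over mice that share groups and tissue makeup. Among 14807 other genes with a mean of at least 1 CPM, those most like the mean of the 4 class II genes were Il17rc (r = 0.926), Tst (0.923), Lyz2 (0.923), Mdfic (0.916), Islr (0.912) and Rab38 (0.912). Lyz2, the lysozyme of macrophages and neutrophils, stood at 2.40, 3.57 and 3.77 CPM at P30, at 1.44, 0.906 and 1.35 CPM at P34 and at 1.16 CPM in P32 mouse 6. Rab38 was the 1 of these 6 genes called lower at P34 (log2 fold change -2.08, adjusted p = 0.0354). Those most like the mean of the 6 class I and peptide supply genes were Ube2l6 (r = 0.926), Arhgdia (0.907), Spsb2 (0.9), Sord (0.893), Bak1 (0.892) and Naglu (0.885), of which 0 were called at P34 by edgeR. Ube2l6 encodes the enzyme that carries the interferon-induced modifier ISG15.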

How the data were processed

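Total RNA of 12 whole retinas was made into TruSeq Stranded mRNA libraries and sequenced as 50 bp single reads. The authors mapped reads to mm10 with STAR 2.5.3a and counted them with HTSeq 0.6.1p1 in union mode on Ensembl release 93 (tool versions also per the submitters' processing notes). They deposited whole-number counts per gene and mouse, not normalized. Of the reads, 23.7 to 32.2% had no unique position, 6.53 to 13.7% fell on no gene and 0.646 to 0.696% were ambiguous, and these stayed out of library sizes.

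Symbols and positions came from GENCODE M21, which matched 99.88% of 54146 IDs. CPM, TMM scaling, the filter by expression and the quasi-likelihood test used edgeR 4.0.16 in R 4.3.3 with all 12 mice in 1 fit and P-values adjusted over 18628 genes. The 9 cKO mice were compared with P30 in a separate fit. The standard error is the log2 fold change divided by the square root of F. A marker score averages log2 CPM (prior count 2) over its genes. The procedure was tested on simulated counts. DESeq2 1.42.0 was an alternative, as were other scaling, filters, samples and covariates. Sex and microglia covariates and leaving out P30 mouse 1 with P32 mouse 4 were added after seeing the data.

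The members and gene lists were chosen with earlier results of these data known. Named are all members, in the other presentation lists any gene called or else the 3 most abundant, and Psmb5, Psmb6, Psmb7, Ciita, Nlrc5, H2-Ea-ps and the 6 genes most like each class. Marker genes and other genes outside this rule were named after their values were seen. 1 further gene of this rule is not reported here. Intervals from counts cover counting error only.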

Additional observations from a re-analysis of the deposited data

How the results depend on the processing

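The number of members called was 0 under every alternative tried at P32 and at P38 against P30, from P32 to P38 and for all cKO mice against P30. At P34 against P30, 2 members were called with no filter beyond 1 count and with DESeq2 without shrinkage (H2-Aa and H2-Eb1 in both, among 298 and 369 genes called, against 123). With only the 2 groups in the fit 1 was called (H2-Aa, 229 genes), and 1 without P30 mouse 1 and P32 mouse 4 (Cd74, 164 genes). When each library was left out, 2 were called without P32 mouse 6, which is in neither group compared, and 0 without any other. At P34 against P32, 1 was called with no filter and 1 with DESeq2 (H2-Eb1 in both, among 656 and 1422 genes, against 45), and 0 to 4 when each library was left out. From P34 to P38, 2 were called with DESeq2 (H2-Aa and H2-Eb1, 144 genes, against 37), 1 with only the 2 groups in the fit (H2-Aa, 71 genes) and 0 when each library was left out. DESeq2's size factors, the filter of 1 CPM, the robust fit and the sex, microglia and ciliary body covariates gave 0 in every comparison. The cause of these changes was not tested.

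The ciliary body covariate turned the sign of 40 of 70 member fold changes, with 0 genes called. At P34 against P30 it gave log2 fold changes of 1.57 for H2-Aa, 1.34 for H2-Ab1, 0.93 for H2-Eb1, 1.46 for Cd74, 0.51 for H2-K1, 1.03 for B2m, 1.07 for Tap1 and 1.07 for Psmb9. At P34 against P32 it gave 1.60 for H2-Aa, 1.19 for H2-Ab1, 0.38 for H2-Eb1, 1.18 for Cd74 and 0.10 for H2-K1. From P34 to P38 it gave -0.73 for H2-Aa, -0.98 for H2-Ab1, -0.19 for H2-Eb1 and -0.77 for Cd74, and at P32 it gave 0.082 for B2m. Without a change of sign it gave 2.10 for Psmb8 (unadjusted p = 0.0293, adjusted p = 0.977) and 0.84 for H2-D1 at P34, and 1.11 for Psmb8 and -0.03 for H2-Aa at P32. The other 64 changes of sign, over all members, comparisons and alternatives, concerned fold changes under 0.5 in size. Among the printed ones, the P34 value of H2-D1 was -0.0065 with only the 2 groups in the fit, -0.15 with sex as a covariate, and -0.16 to 0.14 when each library was left out. Psmb8 with the sex covariate was -0.083 at P34 and -0.12 at P38, and when each library was left out it was -0.16 to 0.35 at P34. Psmb9 at P34 was -0.44 to 0.024 and H2-Ab1 at P34 against P32 -0.46 to 0.20 when each library was left out, and H2-Ab1 was 0.21 there without P30 mouse 1 and P32 mouse 4.

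With 12 to 25 counts of H2-Aa and H2-Eb1 per P34 mouse and 3 mice per group, depth limits the class II values more than those of class I. In the same P34 mice, H2-K1 and H2-D1 had 487 to 1722 counts. No paired analysis was possible because the groups share no replicate numbers.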
